A study of Mus musculus with 20 samples.

Results

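The 9 genes described here encode C-type lectin and TREM receptors of the neutrophil surface: Clec4d (also called Dectin-3 or MCL), Clec4e (Mincle), Clec4n (Dectin-2), Clec7a (Dectin-1), Clec5a (MDL-1), Clec12a (MICL), Clec4a2 (DCIR), Trem1 and Trem3. They were taken by name as known pattern recognition and inflammatory receptors, 9 of the 24421 genes listed, and all 9 were among the 14030 genes abundant enough to be tested. RNA-seq was done on neutrophils isolated from the bone marrow of female mice, 1 library per mouse and 5 mice in each of 4 groups. Wild-type (WT) mice were C57BL/6J, and Bmal1Mye-/- mice (KO below) carried floxed Bmal1 alleles with a Cre recombinase at the Lyz2 locus, which is active in myeloid cells at large and not in neutrophils alone. Bmal1 is a transcription factor of the circadian clock. Mice of each genotype were either left untreated or received imiquimod (IMQ) cream on the ears for 6 weeks, starting at 8 to 10 weeks of age. The study describes IMQ as an agonist of Toll-like receptors 7 and 8, and uses this schedule as a model of lupus. WT mice were purchased and KO mice were bred in-house, so genotype and origin cannot be told apart. All libraries came from cells kept by negative selection, in which other cell types are removed with antibodies.

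These receptors sense microbial glycans and products of damaged cells. Clec4d, Clec4e, Clec4n, Clec5a, Trem1 and Trem3 have no signalling motif of their own and depend on an adaptor, either the Fc receptor gamma chain (Fcer1g) or DAP12 (Tyrobp), which recruits the kinase SYK. Clec7a carries a single activating tyrosine motif in its own tail, and SYK in turn acts through CARD9, BCL10 and MALT1 on transcription of cytokine and chemokine genes. Clec12a and Clec4a2 are the inhibitory members, with a tail motif (ITIM) that recruits phosphatases. On neutrophils the activating receptors are known for triggering phagocytosis, the oxidative burst and cytokine release, and several of them are also found on monocytes, macrophages and dendritic cells.

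Libraries held 30782166 to 92613500 counts on genes (median 66094896). The neutrophil marker list (10 genes, S100a8, S100a9 and Camp among them; Ly6g was not analysed here) summed to 125971 to 148740 CPM (counts of a gene per 1000000 counts on all genes, each library total first multiplied by its TMM scaling factor, 0.854 to 1.38) in the untreated libraries. In the IMQ-treated libraries this sum was 101296 to 159583 CPM in WT and 71334 to 148974 CPM in KO. WT mouse 3 and KO mice 1 and 5 were the lowest of the IMQ-treated libraries, at 101296, 71334 and 107565 CPM. Bmal1, listed as Arntl, was low throughout, at 0.895 to 1.71 CPM in untreated WT and 0.468 to 1.1 CPM in untreated KO, and at 0.561 to 1.87 and 0.337 to 1.52 CPM after IMQ. Its difference between genotypes did not pass the test (log2 fold change -0.90, adjusted p = 1.00, untreated), and reads from exons outside the deleted part count toward it. Lyz2, the locus that holds the Cre, separated the genotypes fully, with 10425 to 12032 CPM in untreated WT against 101 to 177 CPM in untreated KO. The loss of Lyz2 RNA and the deletion of Bmal1 come together in KO mice, so their effects cannot be told apart.

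Levels between genes are compared here per length, as CPM divided by the kilobases of annotated exons. In untreated WT mice Trem3 was the most abundant of the receptors, at 372 ± 16.6 CPM per kilobase (mean ± SD, n = 5), followed by Clec4d at 244 ± 79.4 CPM per kilobase. The ranges of these neighbours did not overlap, and Clec4d also stood clear of the next gene. Trem1 (106 ± 22.9 CPM per kilobase), Clec7a (103 ± 14.3), Clec4a2 (84.9 ± 6.99) and Clec5a (84.5 ± 4.65) formed a middle group in which each gene overlapped the next. Clec12a (66.2 ± 4.83 CPM per kilobase) overlapped Clec4e (47.2 ± 17.5), and Clec4n was far below the others at 4.52 ± 1.33 CPM per kilobase. After IMQ in KO mice Trem3 was still first at 321 ± 68.3 CPM per kilobase, whereas Clec4d at 101 ± 68.1 overlapped Trem1. Clec7a was at place 4 in untreated KO mice (110 ± 12.4 CPM per kilobase) and at place 8 after IMQ (40.5 ± 20.9). Its range there, 11.4 to 65.2 CPM per kilobase, overlapped those of the genes at places 3 to 7, so these places are not separated. Exons of all annotated isoforms were counted in each length, so a gene with a long rare isoform is placed too low.

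In the mm10 mouse genome (GRCm38) 7 of the receptor genes lie on chromosome 6 and the TREM genes on chromosome 17. Clec4a2, Clec4n, Clec4d and Clec4e sit within 183.4 kilobases, from 123106428 to 123289870, with Clec4d on the plus strand (chr6:123262111-123275265) and Clec4e on the minus strand (chr6:123281789-123289870), 6523 bases apart. Clec12a (chr6:129342691-129365303) and Clec7a (chr6:129461591-129472779) lie together farther along, and Clec5a (chr6:40574894-40585821) is on its own. Trem1 (chr17:48232768-48246924) ends 852 bases before Trem3 begins (chr17:48247777-48258841), on the same strand. The annotation lists Clec7a as a polymorphic pseudogene, a label for genes that are intact in some strains and not in others. Clec4a2 overlaps Gm44132 on its own strand and Trem1 overlaps AC241601.2 on the opposite one, so reads of these pairs may have been shared or set aside, depending on the strand setting of the counting, which is not given in the sources used here.

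RefSeq promoter windows (GRCm38.p6, from 250 bases before the annotated start to 50 after it, on the gene's strand) were found for 7 of the 9 genes. Below are those of the 2 genes that passed the test in KO mice, Clec4d and Clec7a, of Clec4e, which neighbours Clec4d, and of Clec12a, an inhibitory receptor that did not pass it. Capitals mark matches to 7 short motifs searched on both strands.
Clec4d, chr6:123261857-123262156, plus strand: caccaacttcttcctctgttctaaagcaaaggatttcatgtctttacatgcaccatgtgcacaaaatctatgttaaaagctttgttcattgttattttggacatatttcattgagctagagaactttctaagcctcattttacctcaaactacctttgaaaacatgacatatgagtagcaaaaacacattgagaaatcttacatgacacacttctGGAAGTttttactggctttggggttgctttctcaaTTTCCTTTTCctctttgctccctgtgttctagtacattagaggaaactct
Clec7a, chr6:129472730-129473029, minus strand: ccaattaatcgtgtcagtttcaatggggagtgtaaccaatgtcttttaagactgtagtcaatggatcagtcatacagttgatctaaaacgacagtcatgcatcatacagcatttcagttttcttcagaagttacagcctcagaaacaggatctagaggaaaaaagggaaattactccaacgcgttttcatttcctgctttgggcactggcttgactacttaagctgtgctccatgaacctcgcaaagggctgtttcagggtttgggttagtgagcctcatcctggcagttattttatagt
Clec4e, chr6:123289822-123290121, minus strand: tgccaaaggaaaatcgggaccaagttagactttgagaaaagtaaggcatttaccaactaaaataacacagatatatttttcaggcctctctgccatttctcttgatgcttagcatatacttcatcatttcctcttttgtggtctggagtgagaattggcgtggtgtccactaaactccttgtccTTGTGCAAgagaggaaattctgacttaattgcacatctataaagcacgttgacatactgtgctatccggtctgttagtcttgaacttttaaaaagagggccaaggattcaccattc
Clec12a, chr6:129349994-129350293, plus strand: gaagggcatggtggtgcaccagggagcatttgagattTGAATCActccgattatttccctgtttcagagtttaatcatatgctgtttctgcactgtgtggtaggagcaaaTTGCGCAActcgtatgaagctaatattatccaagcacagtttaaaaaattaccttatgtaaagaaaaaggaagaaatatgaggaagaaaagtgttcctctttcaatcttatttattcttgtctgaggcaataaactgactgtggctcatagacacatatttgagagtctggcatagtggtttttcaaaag
The E-box CACGTG, the element bound by BMAL1 and its partner CLOCK, was in none of the 7 genes' windows and in 7.15% of all 32851 windows of the table. GGAAGT, the core of sites of the myeloid factor PU.1, was in the windows of Clec4d, Clec4a2 and Trem1 (23.8% of all windows). The interferon-stimulated response element, GAAA repeated after any 2 bases, was in that of Clec4d (3.44%), where the capitals at the start site are its reverse complement. TTGCNNAA, a C/EBP pattern, was in those of Clec4e and Clec12a (10.8%), TTCNNNGAA, a STAT pattern, in those of Clec4a2 and Trem1 (8.3%), and TGANTCA, an AP-1 pattern, in those of Clec12a and Clec4a2 (7.81%). The NF-kB pattern, GGG and CC with any 5 bases between, was in none of the 7 genes' windows and in 50.8% of all windows. Clec5a and Clec7a held no match to any of the 7 patterns in these windows. The windows of Clec12a and Clec4a2 (chr6:123122440-123122739) lie inside the gene spans given above, which start at 129342691 and 123106428. Their matches are therefore at an internal RefSeq start and not at the first annotated start of the gene.

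After IMQ, Clec4d and Clec7a fell in KO mice, and none of the 9 receptors passed the test in WT mice. The test was edgeR's quasi-likelihood F test on the counts of all 20 libraries, with Benjamini-Hochberg adjustment over the 14030 tested genes and a threshold of 0.05. Of all tested genes, 9.04% were lower and 23.5% changed in either direction in the KO comparison, and 1.6% were lower and 3.95% changed in WT. Fewer cells of a type and less RNA per cell cannot be told apart in these bulk libraries.

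Clec4d, which binds trehalose dimycolate and pairs with Mincle on the cell surface, was at 259, 286, 361, 538 and 506 CPM in the 5 untreated WT mice and at 223, 188, 31.2, 327 and 534 CPM in the 5 IMQ-treated WT mice, in order of replicate number. In KO mice it was at 539.8, 592, 510.4, 531 and 438 CPM untreated and at 57.9, 301, 155, 237 and 54.4 CPM after IMQ. All 5 IMQ-treated KO mice were below every untreated KO mouse, whereas the WT groups overlapped, with mouse 3 far below the rest and mouse 5 at the top of the untreated range. The KO means were 522 ± 56 and 161 ± 109 CPM (SD, n = 5), and the log2 fold change was -1.70 (95% interval -2.80 to -0.59, standard error 0.53, adjusted p = 0.0292). In WT the log2 fold change was -0.58 (standard error 0.52, 95% interval -1.66 to 0.50, adjusted p = 0.546).

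Clec7a, the beta-glucan receptor, was at 219, 263, 268, 318 and 298 CPM in untreated WT mice and at 139, 152, 22.9, 285 and 279.9 CPM in IMQ-treated WT mice. In KO mice it was at 269.8, 248, 311, 331 and 292 CPM untreated and at 90.2, 172, 95.1, 147 and 30.2 CPM after IMQ. The KO groups again did not overlap, while 2 of the 5 IMQ-treated WT mice, numbers 4 and 5, lay within the untreated range. The KO means were 290.3 ± 32.7 and 107 ± 55.2 CPM (SD, n = 5), and the log2 fold change was -1.44 (95% interval -2.39 to -0.49, standard error 0.46, adjusted p = 0.0315). In WT it was -0.63 (standard error 0.45, 95% interval -1.57 to 0.30, adjusted p = 0.433).

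Clec4n, the receptor for fungal alpha-mannans, was the scarcest of the 9, down to 10 counts in 1 library. It was at 4.49, 4.9, 6.02, 7.71 and 8.97 CPM in untreated WT mice and at 0.832, 2.54, 0.175, 4.97 and 5.83 CPM after IMQ. In KO mice it was at 7.34, 4.96, 8.04, 7.61 and 6.65 CPM untreated and at 1.39, 3.86, 1.93, 4.74 and 0.618 CPM after IMQ. The KO groups did not overlap, as for Clec4d and Clec7a and for 9.32% of all tested genes in this direction, but the test was not passed (log2 fold change -1.47, standard error 0.61, adjusted p = 0.0831). The WT log2 fold change was -1.16 (standard error 0.60, adjusted p = 0.271), with WT mice 1 and 3 far below the untreated range and mice 4 and 5 inside it. When DESeq2 replaced edgeR the KO value had an adjusted p of 0.0441, and with the KO libraries alone in the fit it had 0.0438.

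Clec4e, which recognises mycobacterial glycolipid and the nuclear protein SAP130 released by dying cells, was at 186, 169, 175, 272 and 371 CPM in untreated WT mice and at 302, 292, 119, 371 and 314 CPM after IMQ. In KO mice it was at 383, 373, 239.5, 302 and 319.5 CPM untreated and at 103, 320.0, 232, 285 and 148 CPM after IMQ. Both pairs of groups overlapped. The fitted log2 fold changes had opposite signs, 0.25 ± 0.31 (adjusted p = 0.681) in WT and -0.57 ± 0.31 (adjusted p = 0.174) in KO (± standard error), and neither passed the test.

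**Figure D1:**
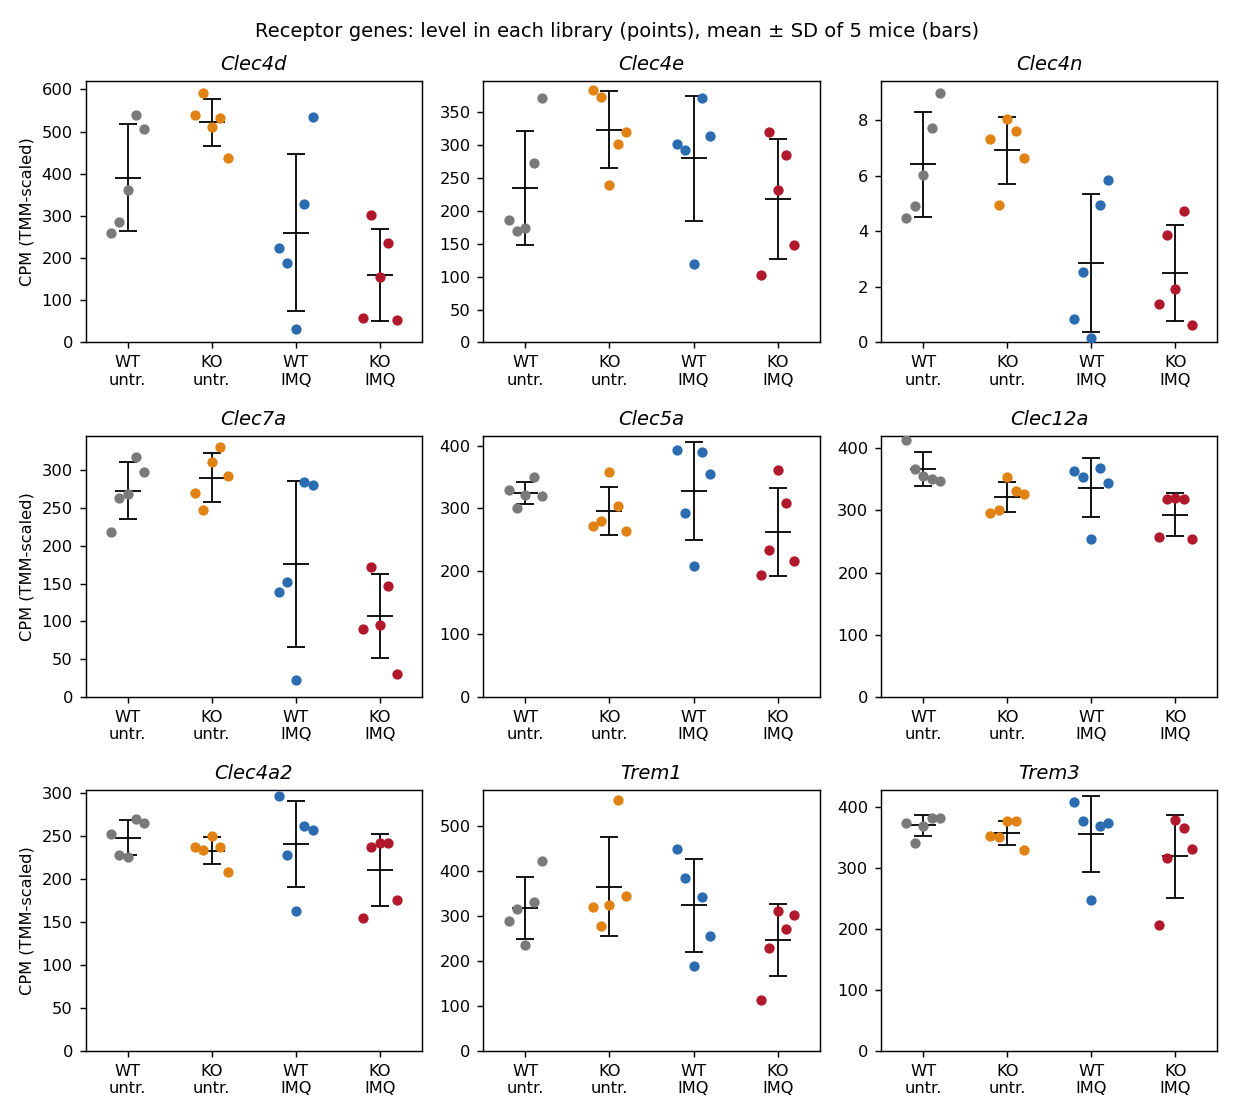
Level of each receptor gene in the 20 libraries, as TMM-scaled CPM on linear axes from 0, for untreated (untr.) and IMQ-treated WT and KO mice; points are mice and bars are the mean ± SD of 5. The 5 IMQ-treated KO mice lie below all untreated KO mice for Clec4d (54.4 to 301 against 438 to 592 CPM), Clec4n and Clec7a, and IMQ-treated WT mouse 3 is far below the other 4 for Clec4d and Clec7a.

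Both calls in KO mice were near the threshold. Clec4d was no longer past it without untreated KO mice 1, 2 and 4 and IMQ-treated KO mice 1, 3 and 5 (adjusted p up to 0.0712), and Clec7a without untreated KO mice 1, 3, 4 and 5 and IMQ-treated KO mice 1, 3 and 5 (up to 0.0691), each left out in turn. Without WT mouse 3 and KO mice 1 and 5 of the IMQ groups, the libraries with the lowest neutrophil marker sums, the KO log2 fold changes were -1.17 for Clec4d (adjusted p = 0.024) and -1.07 for Clec7a (adjusted p = 0.0121), in a fit that called 14.1% of all genes. This set was chosen after seeing the data. Its libraries were also among the 3 lowest of all 20 for 9, 8 and 7 receptors, so these adjusted p values are no separate support. Of 10 monocyte markers, 6 passed the test as higher in KO mice after IMQ (Ccr2, Ms4a6c, Fcgr1, F13a1, Klf4 and Irf8) and none passed it in WT. Of all tested genes, 23.5% changed in either direction in KO and 3.95% in WT. The KO groups overlapped for each of the 6, as for Ccr2, at 16.8 to 43 CPM untreated and 25.4 to 416 CPM after IMQ. Csf1r, the M-CSF receptor on the same list, was at 194 to 223 CPM in untreated and 12.3 to 217 CPM in IMQ-treated KO libraries (log2 fold change -1.03, adjusted p = 0.167). The monocyte list summed to 780.3 to 1011 CPM in untreated KO and 657 to 2551 CPM in IMQ-treated KO libraries. The highest was mouse 1, and the other IMQ-treated KO libraries reached at most 1310 CPM. The lowest, below every untreated KO library, was mouse 5. In WT the list summed to 818 to 939.6 CPM untreated and 986 to 1547 CPM after IMQ. Ly6c2 alone had means of 559 and 680 CPM in KO and 576 and 804 CPM in WT, untreated and after IMQ. Of 10 neutrophil markers, Csf3r, the receptor for G-CSF, fell in KO (log2 fold change -1.38, adjusted p = 0.0223). Dendritic cell markers summed to 41.6 to 61.4 CPM in untreated and 11.2 to 25.7 CPM in IMQ-treated KO libraries, with 1 of 6 tested markers lower (Itgax), and to 30.3 to 58 and 8.73 to 36 CPM in WT, with none lower. Itgax alone had means of 29.6 CPM in untreated and 7.3 CPM in IMQ-treated KO, and 1 of the 6 fitted KO values was above 0. Immature neutrophil markers summed to 4302 to 6517 and 5799 to 9510 CPM in KO and to 4372 to 7020 and 3691 to 10487 CPM in WT, and none of the 8 passed the test. Chil3 made up most of this sum, with means of 3870 CPM in untreated and 5976 CPM in IMQ-treated KO. All 8 fitted values were above 0 in KO (median log2 fold change 0.61), against 4 of 8 in WT (median -0.09). Their interaction values were also all above 0 (median 0.93), and none passed the test. Of 7 tested B lineage markers 3 were lower in KO and none in WT, beside 9.04% and 1.6% of all tested genes. The part of these cell types in the receptor values was not tested.

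**Figure D2:**
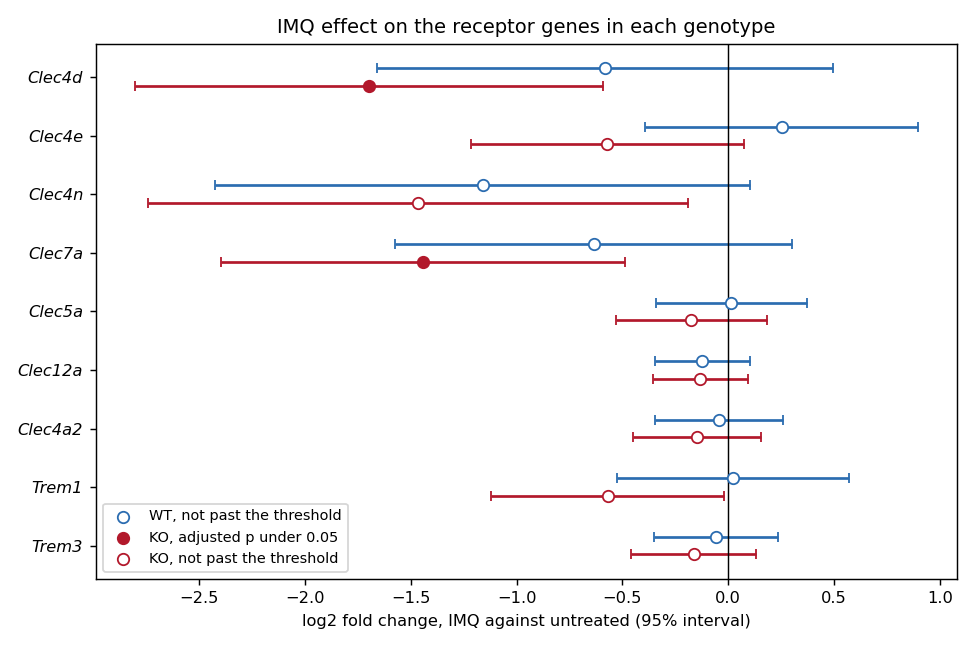
Log2 fold change of each receptor gene after IMQ in WT (blue) and KO (red) mice, with 95% intervals from the edgeR fit; filled points have an adjusted p under 0.05. The filled points are Clec4d (-1.70) and Clec7a (-1.44) in KO, and the WT and KO intervals overlap for all 9 genes.

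None of the receptors that signal through DAP12 passed the test. Trem1, which amplifies responses to Toll-like receptor ligands, was at 235 to 423 CPM in untreated and 188 to 447 CPM in IMQ-treated WT mice, and at 277 to 557 and 115 to 310.3 CPM in KO. Its log2 fold change was 0.02 ± 0.26 (adjusted p = 0.973) in WT and -0.57 ± 0.26 (adjusted p = 0.115) in KO (± standard error); the KO groups overlapped, with mouse 1 the lowest IMQ-treated KO library at 115 CPM and untreated KO mouse 4 the highest of all 20 at 557 CPM. Trem3, a TREM receptor present in mice and a pseudogene in humans, varied little between untreated mice, at 341 to 382 CPM in untreated WT and 329.7 to 377 CPM in untreated KO. After IMQ it was at 247 to 408 CPM in WT and 206 to 378 CPM in KO, with log2 fold changes of -0.06 (95% interval -0.35 to 0.24) and -0.16 (95% interval -0.46 to 0.13). Clec5a, a receptor for dengue virus that also pairs with DAP12, had log2 fold changes of 0.02 (95% interval -0.34 to 0.37) in WT and -0.17 (95% interval -0.53 to 0.19) in KO. Its IMQ-treated mice spanned 208 to 392 CPM in WT and 194 to 361 CPM in KO, on both sides of the untreated mice in either genotype.

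The inhibitory receptors did not pass the test after IMQ. Clec12a, which senses uric acid crystals, was at 348 to 412 CPM in untreated and 253 to 368 CPM in IMQ-treated WT mice, and at 296 to 353 and 253 to 319 CPM in KO. Its intervals were the narrowest of the 9 genes, -0.35 to 0.10 in WT and -0.36 to 0.09 in KO on the log2 scale. Clec4a2, a relative of Clec4n in the same gene cluster, was at 226 to 270.2 CPM in untreated and 163 to 297 CPM in IMQ-treated WT mice, and at 208 to 249.8 and 155 to 242 CPM in KO. Its log2 fold change was -0.04 (95% interval -0.34 to 0.26) in WT and -0.15 (95% interval -0.45 to 0.15) in KO. In the KO comparison all 9 fitted values were below 0, as were 48.2% of all tested genes, but without the 3 low IMQ libraries named above Clec5a and Clec4a2 came out above 0, at 0.02 and 0.05.

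Between the genotypes none of the 9 receptors passed the test, either untreated or after IMQ, where 0.207% and 0.292% of all tested genes did. In untreated mice the largest fitted values were those of Clec4e (log2 fold change 0.46 ± 0.31, adjusted p = 1) and Clec4d (log2 fold change 0.42 ± 0.52, adjusted p = 1), both higher in KO, with an unadjusted p of 0.15 and 0.424. After IMQ the log2 difference of KO from WT lay between -0.72 for Clec7a (95% interval -1.66 to 0.22) and -0.15 for Trem3 (95% interval -0.45 to 0.14). All 9 values were below 0, against 46.9% of tested genes, but with library totals in place of TMM factors Clec12a, Clec4a2 and Trem3 were above 0, at 0.01, 0.0013 and 0.03, while the median of all genes moved from 0.03 to 0.23 and stayed above all 9. In the analysis of variance on log2(CPM + 0.1), Clec4n was at 0.400, above the median of all genes, 0.220. Because the 9 genes varied together across libraries, their signs are not independent. Without IMQ-treated WT mouse 3, Clec7a and Clec12a were past the threshold in this comparison, at -0.999 (adjusted p = 0.0399) and -0.28 (adjusted p = 0.0446), in a fit that called 21.9% of all genes, or 3129 of 14263.

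A different IMQ effect in KO than in WT was not shown for any receptor. The interaction of genotype and treatment in edgeR called 0 of the 9 and 0 of all 14030 genes (0% called), with 721 genes (5.14%) at an unadjusted p under 0.05, and DESeq2 likewise called 0. For Clec4d the interaction was -1.12 (95% interval -2.64 to 0.41), for Clec7a -0.81 (-2.13 to 0.52) and for Clec4e -0.82 (-1.74 to 0.09). The last of these had the smallest unadjusted p of the 9, 0.0746. The 9 interaction values were all below 0, against 48.8% of tested genes, and with library totals, where the median of all genes moved from 0.01 to 0.20, Clec5a, Clec12a, Clec4a2 and Trem3 were above 0 but all 9 were below that median. In the analysis of variance on log2(CPM + 0.1), Clec4n was at 0.252, above the median of all genes, 0.186. The 9 genes varied together across libraries, so their shared sign is not 9 separate results.

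The receptors differed in how much they varied from mouse to mouse. Clec4n, Clec4d and Clec7a spanned the widest ranges among the IMQ-treated WT mice, in which the highest library exceeded the lowest 33.4-fold for Clec4n, 17.1-fold for Clec4d and 12.4-fold for Clec7a. For Clec12a the same ratio was 1.45. IMQ-treated WT mouse 3 was the lowest of its group for all 9 genes and among the 3 lowest of all 20 libraries for 9 of 9. IMQ-treated KO mouse 1 was among the 3 lowest of all libraries for 8 genes and KO mouse 5 for 7. The other 17 libraries were among the 3 lowest for 2 genes at most. WT IMQ 3, KO IMQ 1 and KO IMQ 5 also had the highest TMM factors, 1.16, 1.38 and 1.09. Their reads aligned to more than 1 place made up 6.34%, 6.5% and 5.75%, against at most 5.12% in the other libraries. The part of such technical differences in the receptor values was not tested.

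**Figure D3:**
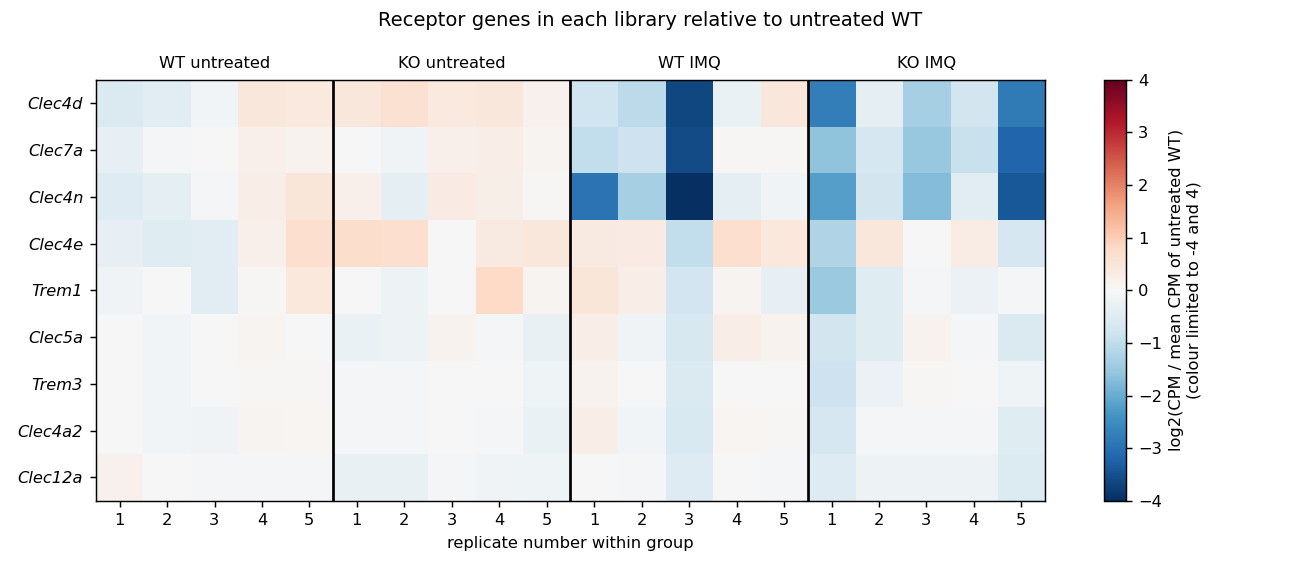
Each receptor gene (rows) in each of the 20 libraries (columns, replicate number within group) as log2 of its CPM over the mean CPM of untreated WT; blue is lower, red is higher, and colours stop at -4 and 4. The columns of WT IMQ 3, KO IMQ 1 and KO IMQ 5 are blue over nearly all rows, and the rows of Clec4d, Clec7a and Clec4n are the most strongly blue.

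Across the 20 libraries, which share the low IMQ libraries and the group differences, log2 CPM of Clec4d, Clec7a and Clec4n followed each other most closely. Clec4d and Clec7a had the highest Pearson r (r = 0.946, rho = 0.835), with 0.915 within groups and 0.894 without the 2 libraries farthest from the median. Clec4n and Clec7a (r = 0.941, rho = 0.952) had the highest rho and the highest r within groups, 0.946, and Clec4d and Clec4n had r = 0.915 and rho = 0.854. Outside this trio the pair of highest r was Clec5a with Clec4a2 (r = 0.892, rho = 0.829), and the closest partner of Trem1 was its neighbour Trem3 (r = 0.822, rho = 0.654). The lowest r was that of Clec4n and Trem1 (r = 0.374, rho = 0.430) and the lowest rho that of Clec4e and Clec12a (r = 0.435, rho = 0.0752). Among the genes outside the 9 that were most like the mean of the receptors, each standardised over the 20 libraries, were Dlgap4, Tmsb4x, Sh2d3c, Dmtf1, Cd53, Lilra6 and Cln3, with r from 0.970 to 0.979. Without WT IMQ 3 and KO IMQ 1, the libraries farthest from the median, r was 0.910 to 0.953. Tmsb4x encodes thymosin beta 4, which binds actin monomers, and Cd53 encodes a tetraspanin of white blood cells.

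The adaptors were abundant and did not pass the test, although Tyrobp in KO did in 5 of 10 other settings (adjusted p 0.0214 to 0.107) and in 3 of 20 fits with 1 library left out, and Hcst in 2 of 10 (0.0448 to 0.236) and 1 of 20. Tyrobp was at 1089.9 to 1435 CPM in untreated and 498 to 1141 CPM in IMQ-treated KO mice, a change of -0.55 ± 0.20 (adjusted p = 0.055) on the log2 scale. Fcer1g had -0.25 ± 0.15 (adjusted p = 0.215) and Hcst, which encodes the adaptor DAP10, -0.47 ± 0.19 (adjusted p = 0.0837) in KO, and the WT values of the 3 adaptors lay between -0.30 and -0.05. Of the 12 kinases and CARD9-complex genes, Syk fell in KO, from 919 to 988 CPM to 390.2 to 805 CPM (log2 fold change -0.68, standard error 0.22, adjusted p = 0.0371), and the groups did not overlap. Of all tested genes, 9.04% were lower in KO and 9.32% had no overlap in this direction. Card9 was at 148 to 172 and 137 to 189 CPM, with 0.04 ± 0.10 (adjusted p = 0.766). The median of these 12 genes was -0.25 in KO and 0.09 in WT, beside 0.02 and 0.03 for all tested genes. None of the 12 passed the test in WT, where Traf6 (log2 fold change 0.21 ± 0.10, adjusted p = 0.227) and Card9 (log2 fold change 0.20 ± 0.10, adjusted p = 0.238) had the smallest p.

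Genes on the joint list of phosphatases and brakes moved in both directions in KO mice. Of 11 genes 3 fell and 2 rose, beside 23.5% of all tested genes changed in either direction in KO. Cd300a, an inhibitory receptor with ITIMs, fell from 197 to 228 to 79.8 to 142 CPM (log2 fold change -0.89 ± 0.24, adjusted p = 0.0149). Inpp5d, which encodes the lipid phosphatase SHIP1, had -0.53 ± 0.16 (adjusted p = 0.0241), and Sirpa, the receptor for the don't-eat-me protein CD47, had -0.65 ± 0.20 (adjusted p = 0.0284). Cblb, a ubiquitin ligase, rose from 3.54 to 5 to 4.35 to 11.4 CPM (log2 fold change 0.96 ± 0.28, adjusted p = 0.0215), and Ptpn11, which encodes the phosphatase SHP2, rose from 103 to 113 to 119 to 146 CPM (log2 fold change 0.28 ± 0.08, adjusted p = 0.0222). In WT none of the 11 passed the test, and Ptpn11 (log2 fold change 0.28 ± 0.08, adjusted p = 0.0519) and Dok1 (log2 fold change -0.35 ± 0.12, adjusted p = 0.0877) had the smallest p. Among genes for endogenous ligands, Hmgb1, a chromatin protein that acts as a danger signal outside the cell, rose in KO from 39.4 to 55.9 to 62.2 to 105 CPM (log2 fold change 0.78 ± 0.21, adjusted p = 0.0167). Pglyrp1, a granule protein that activates TREM-1, had -0.02 ± 0.19 (adjusted p = 0.958) in KO and 0.19 ± 0.19 (adjusted p = 0.601) in WT. Sap130, the ligand of Mincle, had 0.08 ± 0.11 (adjusted p = 0.573) in KO and 0.25 ± 0.11 (adjusted p = 0.168) in WT.

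Of 13 known target genes of these receptors 9 were abundant enough to be tested, and 5 of them fell in KO mice and 2 in WT mice. Of all tested genes, 9.04% were lower in KO and 1.6% in WT. Ptgs2, which encodes cyclooxygenase 2, was at 59.7 to 282 CPM in untreated and 1.14 to 21.3 CPM in IMQ-treated KO mice (log2 fold change -4.10 ± 0.83, adjusted p = 0.00624). In WT it was at 141 to 227 and 0.507 to 64 CPM and did not pass the test (log2 fold change -2.72 ± 0.78, adjusted p = 0.0551), although those groups did not overlap. Il1b fell in KO from 309 to 509.8 to 17.4 to 211 CPM (log2 fold change -2.02 ± 0.62, adjusted p = 0.0275), and Nlrp3, the inflammasome sensor, from 184 to 303 to 16.1 to 94 CPM (log2 fold change -2.16 ± 0.50, adjusted p = 0.00894). Their WT values were -1.03 ± 0.60 (adjusted p = 0.329) and -0.98 ± 0.49 (adjusted p = 0.244). The chemokine genes Ccl3 and Ccl4 fell in both genotypes, with log2 fold changes for Ccl4 of -2.35 ± 0.46 (adjusted p = 0.00539) in KO and -2.01 ± 0.45 (adjusted p = 0.0225) in WT, and for Ccl3 of -1.36 ± 0.45 (adjusted p = 0.036) in KO and -1.76 ± 0.45 (adjusted p = 0.0366) in WT. Tnf, Il1a, Il10 and Cxcl2 did not pass the test in either genotype. Each of these genes is also induced by other receptors.

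**Figure D4:**
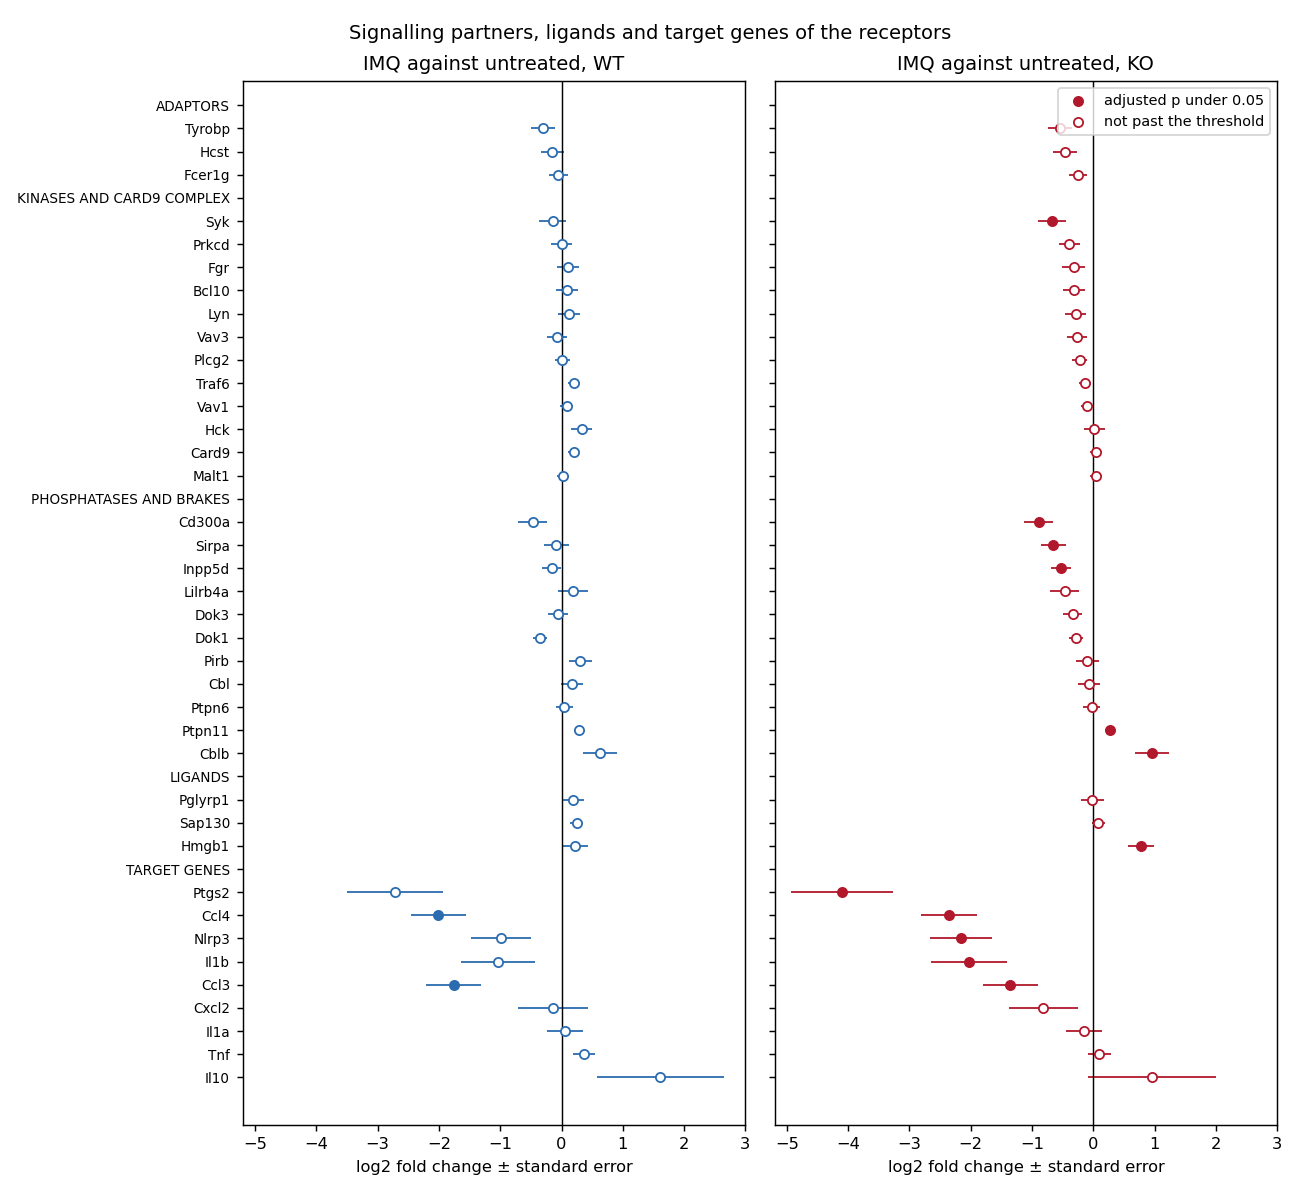
Log2 fold change after IMQ (points) ± standard error (bars) in WT (left, blue) and KO (right, red) mice. Genes are the tested adaptors, kinases, phosphatases, brakes, ligands and target genes. Filled points have an adjusted p under 0.05. Ptgs2 in KO lies farthest left at -4.10, and 2 points are filled in WT (Ccl4 and Ccl3) against 12 in KO. Of all tested genes, 3.95% changed in WT and 23.5% in KO at this threshold.

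Other members of the lectin and TREM families were mostly scarce, and 25 of the 28 on the list were tested. Of these, 2 were higher and 2 lower after IMQ in KO, and 2 were lower in WT. Of all tested genes, 23.5% changed in either direction in KO and 3.95% in WT. In KO mice 2 rose after IMQ, Clec2i, a ligand of the receptor NKRP1 (1.14 to 2.88 CPM untreated, 2.96 to 11.7 CPM after IMQ, log2 fold change 1.85 ± 0.44, adjusted p = 0.00995), and Trem2, a lipid receptor of macrophages (0.817 to 1.35 and 0.855 to 18.1 CPM, log2 fold change 2.43 ± 0.60, adjusted p = 0.0113). Trem2 was at 18.1 CPM in its highest IMQ-treated KO library and overlapped the untreated group, and without that library, mouse 1, its log2 fold change was 1.17. Clec1b, which encodes the podoplanin receptor CLEC-2 (6.7 to 8.25 and 3.04 to 5.15 CPM, log2 fold change -0.83 ± 0.22, adjusted p = 0.0158), and Clec4g (1.08 to 1.65 and 0.197 to 1.27 CPM, log2 fold change -1.32 ± 0.46, adjusted p = 0.0433) fell. In WT Treml1, a platelet protein (1.16 to 5.32 and 0.176 to 0.65 CPM, log2 fold change -2.89 ± 0.71, adjusted p = 0.0325), and Mgl2, a galactose-type lectin of macrophages and dendritic cells (0.925 to 4.77 and 0.458 to 1.14 CPM, log2 fold change -1.68 ± 0.44, adjusted p = 0.0395), fell. None of these list genes passed the test between genotypes or for the interaction.

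Of the genes on these lists, several calls ended when 1 library was left out. Syk in KO was past the threshold only without untreated WT mouse 2, IMQ-treated WT mice 2, 3, 4 and 5 and IMQ-treated KO mice 2 and 4 (adjusted p 0.012 to 0.0987 over the 20 fits). Clec4g in KO was past the threshold only without IMQ-treated WT mice 3, 4 and 5 and IMQ-treated KO mice 2 and 4 (adjusted p 0.00693 to 0.102 over the 20 fits). Sirpa in KO was lost without untreated KO mice 3, 4 and 5 and IMQ-treated KO mice 1, 3 and 5 (0.00995 to 0.0785). Inpp5d in KO was lost without untreated KO mice 3 and 4 and IMQ-treated KO mice 1 and 5 (0.00669 to 0.0684). Il1b in KO was lost without untreated KO mouse 4 and IMQ-treated KO mice 1 and 5 (0.00289 to 0.0653). Ccl3 in KO was lost without untreated KO mice 3, 4 and 5 and IMQ-treated KO mice 2, 4 and 5 (0.0162 to 0.0954). Cblb in KO was lost without untreated KO mouse 4 and IMQ-treated KO mouse 1 (0.0048 to 0.0554). Ptpn11 in KO was lost without untreated KO mouse 4 (0.0123 to 0.0619). Ccl3 in WT was lost without untreated WT mice 1, 2, 3, 4 and 5 and IMQ-treated WT mice 1, 2, 3 and 4 (0.0223 to 0.0897). Ccl4 in WT was lost without untreated WT mice 2, 3 and 4 and IMQ-treated WT mice 2, 3 and 4 (0.0113 to 0.0628). Mgl2 in WT was lost without untreated WT mice 1, 2, 3 and 5, untreated KO mice 1 and 2 and IMQ-treated WT mice 1, 2, 3 and 4 (0.0191 to 0.123). Treml1 in WT was lost without untreated WT mice 2, 3, 4 and 5 and IMQ-treated WT mice 1, 2, 3 and 4 (0.0124 to 0.0831). Ptgs2, Nlrp3, Ccl4, Cd300a, Hmgb1, Clec2i, Clec1b and Trem2 stayed past the threshold in KO in all 20 such fits. Of the 10 other settings, the analysis of variance lost Hmgb1 (adjusted p = 0.0505) and Trem2 (adjusted p = 0.0732), and Ccl3 in KO passed in 6, Clec4g in KO and Mgl2 in WT in 7, and Syk and Ptpn11 in KO in 8.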

How the data were processed

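Bone marrow neutrophils of 20 mice (4 groups of 5) were profiled by poly(A) RNA-seq. The deposited values are raw counts per gene, made by the authors with STAR 2.7.8a and HTSeq 2.0.1 on mm10 per the submitters' processing notes, whereas the study's methods name TopHat 2.1.1. Annotation and strand setting are not given in the sources used here, and the sequencers named (NovaSeq or NextSeq) are not assigned to libraries, so a sequencer batch could not be examined. A combined table with the same counts, and the authors' own comparisons, were not used.

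Reads on no feature (51.9% to 57.8%) and other rows naming no gene were dropped. Genes were filtered with filterByExpr, scaled by TMM and tested in edgeR 4.0.16 (R 4.3.3), in 1 fit of 4 groups, with Benjamini-Hochberg adjustment at 0.05. The pipeline was tested on simulated data. CPM are TMM-scaled. Exon lengths and coordinates are from GENCODE (GRCm38). The 9 receptors and all lists, chosen for known function, were set with earlier results of these data known. Genes named from a list are those past the threshold, at most 6 per list, otherwise the 2 of smallest p, and all adaptors, Pglyrp1 and Sap130. Card9 and other genes beyond this rule were chosen after their values were seen. A gene among those most like the receptors in pattern is not reported here. Alternatives were DESeq2 1.42.0, RLE factors, library totals, 2 other filters, an analysis of variance on log2(CPM + 0.1), fits of the compared groups alone, a replicate block, leaving out each library, and leaving out sets of libraries chosen after seeing the data. Replicate numbers were checked for pairing, which the labels do not state. Deviations from group means of same-numbered untreated and IMQ-treated KO mice correlated at 0.128 to 0.426, above the set threshold of 0.1 in all 5 pairs. The WT correlations were similar, at 0.0728 to 0.384, with that of mouse 2 below the threshold. Whether same-numbered mice were paired is not known. The fits are given without the block, and a block within each genotype was not fitted.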

Additional observations from a re-analysis of the deposited data

Results flagged for a closer look

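In 4 of the 36 combinations of receptor and group, 1 of the 5 mice stood apart from the others by Dixon's test at the 95% level, which chance alone flags in about 1 of 20 groups. Clec12a was at 412 CPM in untreated WT mouse 1 and 348 to 366 CPM in the other 4. Clec12a was at 253 CPM in IMQ-treated WT mouse 3 and 344 to 368 CPM in the others. Trem3 was at 247 CPM in the same IMQ-treated WT mouse and 368 to 408 CPM in the others. Trem1 was at 557 CPM in untreated KO mouse 4 and 277 to 345 CPM in the others. Without that mouse the log2 fold change of Trem1 after IMQ in KO was -0.37 in place of -0.57.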

How the results depend on the processing

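The called values of Clec4d and Clec7a in KO kept their sign in every fit run, and passed the threshold in 10 of 10 (Clec4d) and 9 of 10 (Clec7a) settings other than leaving out 1 library. The exception for Clec7a was the analysis of variance (adjusted p = 0.0519). Those settings include the fits without sets of libraries chosen after seeing the data. The values that changed sign were all of genes that passed no test in that comparison, and their causes were not tested. List genes here are the adaptors, kinases, phosphatases, brakes, ligands, target genes and other family members together. With library totals in place of TMM factors, signs changed for Clec5a (-0.0736) and Trem1 (-0.0635) after IMQ in WT, Pglyrp1 (0.0643) after IMQ in KO, Clec12a (0.00614), Clec4a2 (0.00130) and Trem3 (0.0341) between IMQ-treated genotypes, Clec5a (0.00200), Clec12a (0.187), Clec4a2 (0.0787) and Trem3 (0.0709) for the interaction. Library totals moved the median of all genes from 0.0237 to 0.155 after IMQ in KO, from 0.0335 to 0.229 between IMQ-treated genotypes and from 0.0143 to 0.201 for the interaction, and all 9 receptors were below it in these comparisons. The analysis of variance, likewise without TMM factors, moved it to 0.105, 0.220 and 0.186. In the analysis of variance on log2(CPM + 0.1), signs changed for Clec5a (-0.0849) and Trem1 (-0.0794) after IMQ in WT, Pglyrp1 (0.0351) after IMQ in KO, Clec4n (0.400), Clec12a (0.00183), Clec4a2 (0.00236) and Trem3 (0.0317) between IMQ-treated genotypes, Clec4n (0.252), Clec5a (0.000286), Clec12a (0.179), Clec4a2 (0.0802) and Trem3 (0.0684) for the interaction, and receptors called after IMQ in KO were 1 in place of 2. With genes of at least 10 counts in every library, signs changed for Clec5a (-0.0134) and Trem1 (-0.00519) after IMQ in WT, Clec12a (0.000306) for the interaction. With no filter on low counts, signs changed for Pglyrp1 (0.00119) after IMQ in KO, Clec12a (0.0178) for the interaction. With just the groups compared in the fit, signs changed for Pglyrp1 (0.000827) after IMQ in KO. With the replicate number as a block, signs changed for Clec4n (0.00179) between IMQ-treated genotypes, and list genes called after IMQ in WT were 2 in place of 4 and list genes called between IMQ-treated genotypes were 1 in place of 0. With DESeq2, list genes called after IMQ in WT were 10 in place of 4 and list genes called between IMQ-treated genotypes were 2 in place of 0. Without WT IMQ 3, KO IMQ 1 and KO IMQ 5, chosen after seeing the data, signs changed for Clec4a2 (0.0571), Trem3 (0.0334) and Fcer1g (0.0562) after IMQ in WT, Clec5a (0.0219), Clec4a2 (0.0452) and Pglyrp1 (0.177) after IMQ in KO, Clec4n (0.0128) between IMQ-treated genotypes, Clec12a (0.0398) for the interaction, and list genes called after IMQ in WT were 12 in place of 4. Without WT IMQ 5 and KO IMQ 2, the IMQ libraries nearest the untreated ones and likewise chosen after seeing the data, signs changed for Clec5a (-0.0179) after IMQ in WT, Pglyrp1 (8.07e-05) after IMQ in KO, Clec4n (0.0284) between IMQ-treated genotypes, and list genes called after IMQ in WT were 13 in place of 4. With 1 library left out at a time, the counts ranged as follows: list genes called after IMQ in WT 0 to 11, receptors called after IMQ in KO 0 to 3, list genes called after IMQ in KO 8 to 19, receptors called between IMQ-treated genotypes 0 to 2, list genes called between IMQ-treated genotypes 0 to 16. Receptors called in KO were 0 without untreated KO mice 1 and 4 and IMQ-treated KO mice 1, 3 and 5, 1 without untreated KO mice 2, 3 and 5 and 3 without IMQ-treated WT mouse 3 and IMQ-treated KO mouse 4. Without IMQ-treated WT mouse 3 the comparison of IMQ-treated genotypes held the 2 receptors and 16 list genes, and genes called in it rose from 41 to 3129 of those tested. In those fits the log2 values that changed sign spanned, after IMQ in WT Clec5a -0.0671 to 0.137, Clec4a2 -0.126 to 0.0654, Trem1 -0.122 to 0.160, Trem3 -0.113 to 0.0416, Fcer1g -0.120 to 0.0646, after IMQ in KO Pglyrp1 -0.0864 to 0.173, between untreated genotypes Clec4n -0.0146 to 0.240, Trem1 -0.00609 to 0.304, between IMQ-treated genotypes Clec4n -0.577 to 0.226, for the interaction Clec4n -0.667 to 0.135, Clec12a -0.0795 to 0.0585, Clec4a2 -0.202 to 0.00572, Trem3 -0.193 to 0.0374. The replicate block left Clec4d (-1.80, adjusted p = 0.0304) and Clec7a (-1.49, adjusted p = 0.0354) called in KO and changed no other receptor call. The block joins same-numbered mice of all groups, whose deviations correlated at 0.0728 to 0.384 in WT and 0.128 to 0.426 in KO. Between genotypes these correlations were -0.441 to 0.206 untreated and -0.497 to 0.343 after IMQ. Depth limits Clec4n most, with the fewest counts of the 9 receptors.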
